A study of Mus musculus with 6 samples.

Results

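The messenger RNAs of 8 secreted growth factors, Igf1, Hgf, Vegfa, Nrg1, Areg, Hbegf, Tgfb1 and Pdgfb, were followed across the leukocytes of inflamed mouse synovium. The genes were taken by symbol, and all 8 were among the 20394 genes of the count table. Single-cell RNA sequencing had been run on cells sorted for CD45, the surface protein of leukocytes, from knees with antigen-induced arthritis (AIA). In this model C57BL/6 mice are immunized under the skin with 10 μg of methylated bovine serum albumin (mBSA) in complete Freund's adjuvant and challenged on day 21 with 100 μg mBSA in the knee joint, and here the synovium was taken 3 days later. Of the 6 samples, 2 were from animals that received phosphate buffered saline (PBS) alone, and 4 were from animals that received PEPITEM, a peptide, at 300 μg into the peritoneum. All 6 shared the immunization and the challenge, and no joint without arthritis was part of the series.

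The table holds 32953 cells from 6 libraries, which the cell barcodes number from 1 to 6. No source used here ties these numbers to PBS or PEPITEM, so no level was compared between treatments, and the libraries were read as samples of unknown treatment, with no test between them. They held 2919 to 9345 cells and 47273569 to 123367661 unique molecular identifiers (UMIs, tags of single RNA molecules), with library medians of 9923 to 14001 UMIs per cell. Of the cell barcodes, 138 occurred in more than 1 library. A transcript of Ptprc, which encodes CD45, was found in 95.8% of the cells (95.6 to 96.0%). Beside mature leukocytes there were cells with markers of marrow, among them 785 promyelocyte-like, 300 stem and progenitor-like and 2109 pre-B cell-like cells, and whether marrow entered the tissue samples was not tested. Only RNA was measured, not the secreted proteins.

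Growth factors are ligands that bind receptors on the surface of the same or of neighboring cells. IGF-1, HGF, VEGF-A and PDGF-B act on receptor tyrosine kinases and promote growth, motility, vessel formation and the recruitment of mesenchymal cells. Neuregulin 1, amphiregulin and HB-EGF belong to the EGF family and act on the EGF receptor and its ErbB relatives, after enzymes such as ADAM17 have cut them from the cell membrane. TGF-β1 is secreted in a latent complex and restrains or steers many immune cells once it is released. In joints these factors are known from wound repair, from the growth of pannus and vessels, and from signals between macrophages and fibroblasts.

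Cells were assigned to 34 classes by lists of marker genes that left out all growth factors and their pathway genes, and 2382 cells (7.23%) stayed without a class because no list led clearly. Within 0.05 of the lead in marker score that the gate required lay 2388 cells, 7.25% of all. Of these, 1176 were among the cells without a class. The classes of at least 40 cells, 31 in number, are the ones ranked here. A class was called "like" the cell type of its markers, such as resident macrophage-like for cells with Lyve1, Cd163, Folr2 and Vsig4. Levels are UMIs of the gene per 1000000 UMIs of the class (CPM), pooled over all libraries, with exact Poisson 95% intervals that cover counting error only. The protocol counts the 3′ ends of transcripts, CPM were not divided by transcript length, and levels were compared between classes within a gene.

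Of the 7834 genes that reached 50 CPM in at least 1 of the 31 classes, 20.4% had a highest class at least 2-fold above the next. Of the growth factors, 7 reached that level, and Igf1, Hgf, Areg and Hbegf met the 2-fold lead. Igf1 and Hbegf were highest in fibroblast-like cells, Hgf in basophil-like cells, Areg in type 2 innate lymphoid (ILC2)-like cells, Nrg1 in cycling monocyte-like cells, Vegfa in Arg1 macrophage-like cells, Tgfb1 in pre-B cell-like cells and Pdgfb in resident macrophage-like cells. In the pooled levels, each of the 8 kept its highest class when any 1 library was left out, and also under a stricter gate. Within single libraries only classes of at least 20 cells were ranked, and there 2 to 5 of the 8 kept it. Basophil-like cells, at most 17 in a library, were never ranked there, and fibroblast-like and ILC2-like cells only in some libraries. The count thus also reflects classes with too few cells. By the median over libraries Hbegf was higher in resident macrophage-like than in fibroblast-like cells.

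**Figure D1:**
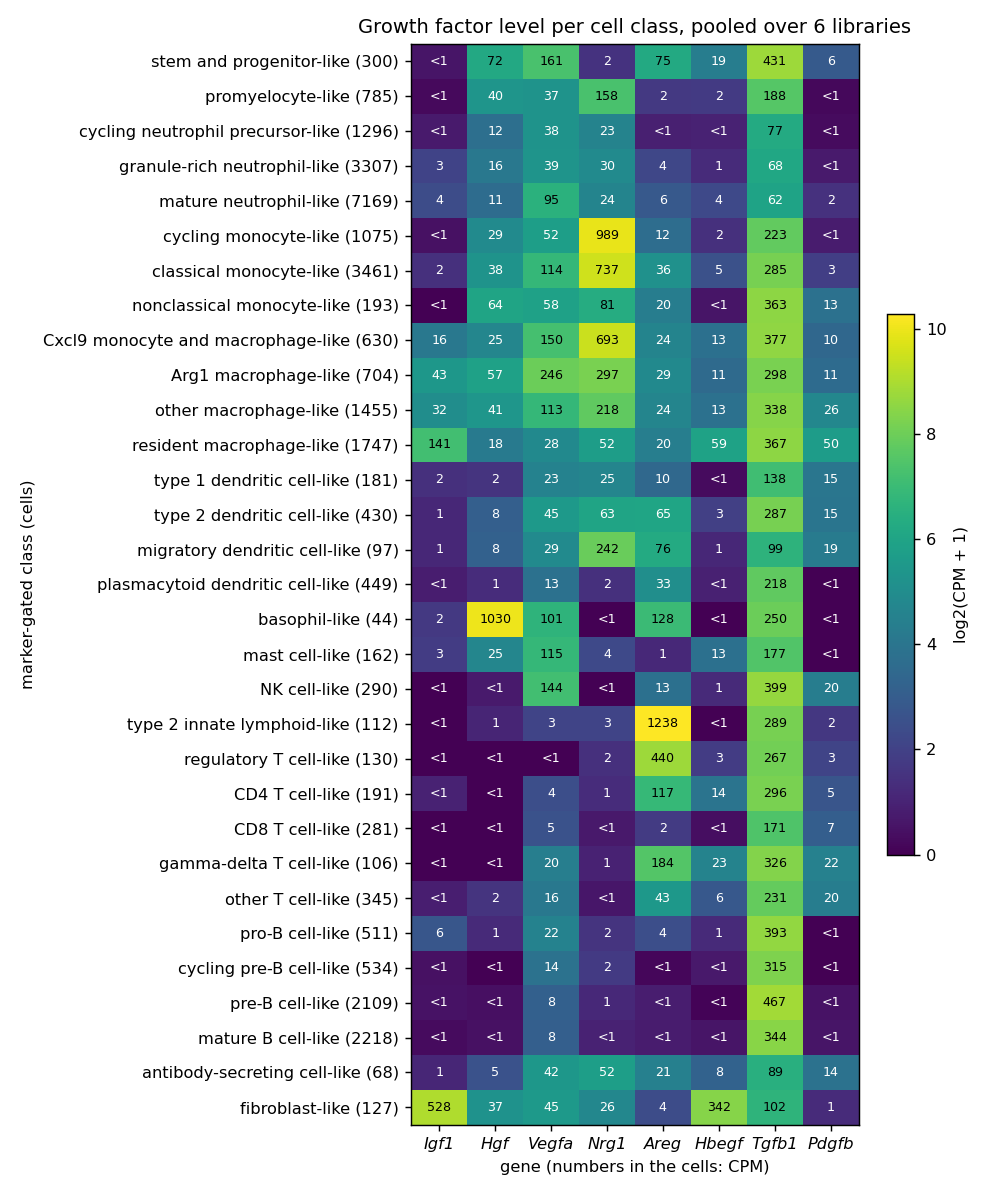
Level of the 8 growth factors (columns) in the 31 marker-gated classes of at least 40 cells (rows, with the number of cells), pooled over 6 libraries. The color gives log2(CPM + 1) and the printed numbers give CPM. Hgf stands out in basophil-like cells, Areg in ILC2-like and regulatory T cell-like cells, Nrg1 in monocyte-like classes and Igf1 in fibroblast-like and resident macrophage-like cells, while Tgfb1 is spread over most rows.

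Areg and Hgf, the factors for which a leukocyte class led at least 2-fold, are shown by the 250 bases before a RefSeq start site in the GRCm38.p6 build, to give the sequence context of these genes. Both lie on the plus strand of chromosome 5, outside the gene bodies in the GENCODE vM21 annotation, at chr5:91139349-91139598 for Areg and chr5:16553245-16553494 for Hgf. Capitals mark matches, on either strand, to GATAA (the GATA motif), TGACGTCA (the cyclic AMP response element), ACGTG (the core of the hypoxia response element) and TATAAA (the TATA box).
Areg: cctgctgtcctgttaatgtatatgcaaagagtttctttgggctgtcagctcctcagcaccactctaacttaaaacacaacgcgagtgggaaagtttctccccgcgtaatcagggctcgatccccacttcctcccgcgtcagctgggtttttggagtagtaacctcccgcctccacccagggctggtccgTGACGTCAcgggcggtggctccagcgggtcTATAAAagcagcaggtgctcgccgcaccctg
Hgf: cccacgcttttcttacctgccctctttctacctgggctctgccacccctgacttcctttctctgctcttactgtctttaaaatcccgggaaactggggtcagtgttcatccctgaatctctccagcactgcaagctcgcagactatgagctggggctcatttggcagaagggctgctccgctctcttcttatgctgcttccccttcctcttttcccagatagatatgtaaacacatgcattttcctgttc
The Areg sequence held TGACGTCA, beginning 61 bases before the start site, and TATAAA, beginning 31 bases before it. Across 32851 windows of the same length in the RefSeq table, 1.55% held TGACGTCA, 12.4% TATAAA, 22.6% GATAA and 16.6% ACGTG. None of the 4 motifs was in the Hgf window. The table held windows for 5 of the 8 genes.

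Igf1 (ENSMUSG00000020053, chr10:87858265-87937042, GRCm38), the insulin-like growth factor that supports survival and growth of many cell types, was a transcript of resident macrophage-like cells and of the few fibroblast-like cells. Its level was 141 CPM (136 to 146) in 1747 resident macrophage-like cells, 42.6 CPM (39.5 to 45.8) in 704 Arg1 macrophage-like cells, 32.1 CPM (29.97 to 34.3) in 1455 other macrophage-like cells, and 1.69 CPM (1.38 to 2.05) in 3461 classical monocyte-like cells. By library, from 1 to 6, resident macrophage-like cells had 161, 134, 139, 151, 120.4 and 107 CPM. Every one of these values lay above the highest Arg1 macrophage-like library, 89.6 CPM, and the pooled levels differed 3.31-fold. Resident macrophage-like cells held 46.5% of all Igf1 UMIs and 5.20% of all UMIs.

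Fibroblast-like cells reached 528 CPM of Igf1 (497 to 559.8). There were 127 of them, and Ptprc was found in 14.96% of these cells (9.25 to 22.4%, exact binomial interval), far below the share in all cells. Of the macrophage markers, all 9 had a UMI in this class, and their sum was 108 to 2885 CPM by library. The class with the highest level of Igf1, and of Hbegf below, was thus not one of leukocytes by its markers. Library values were 843, 216, 628, 158, 261 and 229 CPM, from 6 to 45 cells each. Library 1 was the highest, and without it the pooled value was 298 CPM. Fibroblast-like cells lay above resident macrophage-like cells within each of the 6 libraries, although the ranges of the libraries overlapped.

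In single cells, Igf1 was found in 59.6% of resident macrophage-like cells (57.3 to 62.0%) at a median of 13017 UMIs per cell. In mature B cell-like cells, taken as a class that should lack the transcript, it was found in 0.0902% (0.0109 to 0.325%) at a median of 5602.5 UMIs. After each cell was thinned to 3000 UMIs, leaving out the shallower cells, the shares were 28.7% of 1669 resident macrophage-like cells (26.5 to 30.9%) and 49.2% of 124 fibroblast-like cells (40.1 to 58.3%). Igf1 was thus found in many resident macrophage-like cells, unthinned with 3.42 UMIs per positive cell. It was uneven among them, since 53 cells with at least 10 Igf1 UMIs held 21.2% of the Igf1 UMIs of the class. The 10% of cells with most held 46.1%. No Igf1 UMI was counted in 290 NK cell-like cells or in 281 CD8 T cell-like cells. By the limit of 3 counts of the total, this allows up to 1.03% and 1.07% of cells with a UMI, and sets no limit on cells that express the gene.

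Pdgfb (ENSMUSG00000000489, chr15:79995874-80014977), the B chain of platelet-derived growth factor and a mitogen of fibroblasts and pericytes, had its highest level in the same class. The pooled value was 49.7 CPM (47.0 to 52.5) in resident macrophage-like cells, and libraries 1 to 6 had 61.0, 65.5, 43.8, 29.7, 64.6 and 55.7 CPM. Library 4 was the lowest. Other macrophage-like cells had 26.4 CPM (24.4 to 28.4), Arg1 macrophage-like cells 10.99 CPM (9.48 to 12.7) and classical monocyte-like cells 2.70 CPM. The 6 resident macrophage-like values all lay above the highest Arg1 macrophage-like library. The resident class held 34.1% of all Pdgfb UMIs. Too few to be ranked, 17 endothelial-like cells had 45.8 CPM of Pdgfb (23.7 to 80.0) from 12 UMIs.

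Lower Pdgfb levels were found in lymphoid classes, with 22.1 CPM (13.8 to 33.4) in gamma-delta T cell-like, 19.7 CPM (14.97 to 25.4) in NK cell-like and 19.6 CPM (15.2 to 24.7) in other T cell-like cells. Their intervals overlapped, and no order among these classes was read from them. The gamma-delta T cell-like value came from 22 UMIs and was 8.97 to 64.6 CPM by library. Fibroblast-like cells, which led for Igf1, had 1.41 CPM of Pdgfb. In 3000 UMIs, Pdgfb was found in 12.3% of resident macrophage-like cells (10.8 to 14.0%) of 1669 cells. Unthinned, the share was 30.3% there and 0.135% (0.0279 to 0.395%) in mature B cell-like cells.

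Hbegf (ENSMUSG00000024486, chr18:36504927-36515805), which encodes heparin-binding EGF-like growth factor, a ligand that cells shed after injury, was also highest in fibroblast-like cells (342 CPM, 317 to 368) and next in resident macrophage-like cells (59.2 CPM, 56.3 to 62.3) when libraries were pooled. The fibroblast-like level was the higher in 3 of 6 libraries, and by the median over libraries the order turned, with 28.4 CPM in fibroblast-like and 51.3 CPM in resident macrophage-like cells. The fibroblast-like value came from few cells of few libraries. Libraries 1 to 6 had 24.5, 31.8, 15.8, 25.02, 971 and 717 CPM, so libraries 5 and 6 were high and the other 4 low. The pooled value was 103 CPM without library 5 and 574 CPM without library 1, and 12 cells with at least 10 Hbegf UMIs held 91.3% of the Hbegf UMIs of the class. Too few to be ranked, 17 endothelial-like cells had 107 CPM of Hbegf (71.0 to 155) and 26 megakaryocyte-like cells 52.9 CPM (35.9 to 75.1).

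Resident macrophage-like cells also varied, with 84.5, 4.62, 56.4, 28.9, 97.6 and 46.1 CPM of Hbegf in libraries 1 to 6. The lowest value, of library 2, came from 65 cells. In each library the resident class lay above the Arg1 macrophage-like class, which had 10.6 CPM (9.16 to 12.3) when pooled. This class held 33.8% of all Hbegf UMIs and the fibroblast-like class 16.4%. Within it, 35 cells with at least 10 Hbegf UMIs, from 0 to 16 a library, held 40.9% of the Hbegf UMIs. Described after their values were seen, these cells had 4676 CPM of the monocyte chemokine gene Ccl2 and 174 CPM of Areg. The 1347 cells without Hbegf had 1106 and 14.7 CPM. A count of 10 UMIs is reached more easily in deep cells, and whether some of the barcodes high in Hbegf held more than a single cell was not tested. In 3000 UMIs, Hbegf was found in 11.1% of resident macrophage-like cells (9.62 to 12.7%) and in 0.0466% of mature B cell-like cells.

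For each pair among Igf1, Pdgfb and Hbegf, the share of resident macrophage-like cells with one was compared between cells with and without the other. Among those with a Pdgfb UMI after thinning, 25.2% had Igf1 (19.5 to 31.7%, 206 cells), against 29.2% of those without (26.9 to 31.6%). For Hbegf the shares with Igf1 were 34.1% (27.3 to 41.4%, 185 cells) and 28.0% (25.8 to 30.4%) for cells with and without it. Pdgfb was found in 8.11% of the cells with Hbegf (4.61 to 13.02%) and 12.9% of the 1484 without (11.2 to 14.7%), and the intervals overlapped in all 3 pairs. Resident macrophage-like cells with UMIs of both Fxyd2 and Aqp1, genes that lead this class, numbered 1210 and had 126 CPM of Igf1 (121 to 131). The 147 cells with neither had 107 CPM (93.0 to 122). The former were higher in 4 of 6 libraries. In libraries 3 and 5 they had 119 and 106 CPM, against 214 and 199 CPM in the cells with neither. The whole class had 141 CPM, more than either subset, so its cells with only 1 of these genes lay above both. Those cells were not described further, and no order of Igf1 by Fxyd2 and Aqp1 was read from the 2 subsets. Pdgfb was at 55.5 CPM in the cells with both genes and 33.8 CPM in those with neither, and was higher in the former in 5 of 6 libraries.

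Nrg1 differed between the same subsets the other way in 5 of 6 libraries, with 25.8 CPM (23.4 to 28.2) in the cells with both Fxyd2 and Aqp1 and 234 CPM (214 to 256) in those with neither. A small number of cells carried it, since 33 resident macrophage-like cells with at least 10 Nrg1 UMIs held 82.2% of the Nrg1 UMIs of the class, and 1 library gave 17 of the 33. These cells were described after their values were seen. They had 2658 CPM of H2-Aa and 452 CPM of Ccr2, the chemokine receptor of monocytes, against 412 and 92.7 CPM in the 1640 cells without Nrg1. Lyve1, a marker of the gate, was at 326 CPM in the former and 1523 CPM in the latter. Their median UMI counts were 26032 and 12615.5, and whether some of these barcodes held more than 1 cell was not tested.

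**Figure D2:**
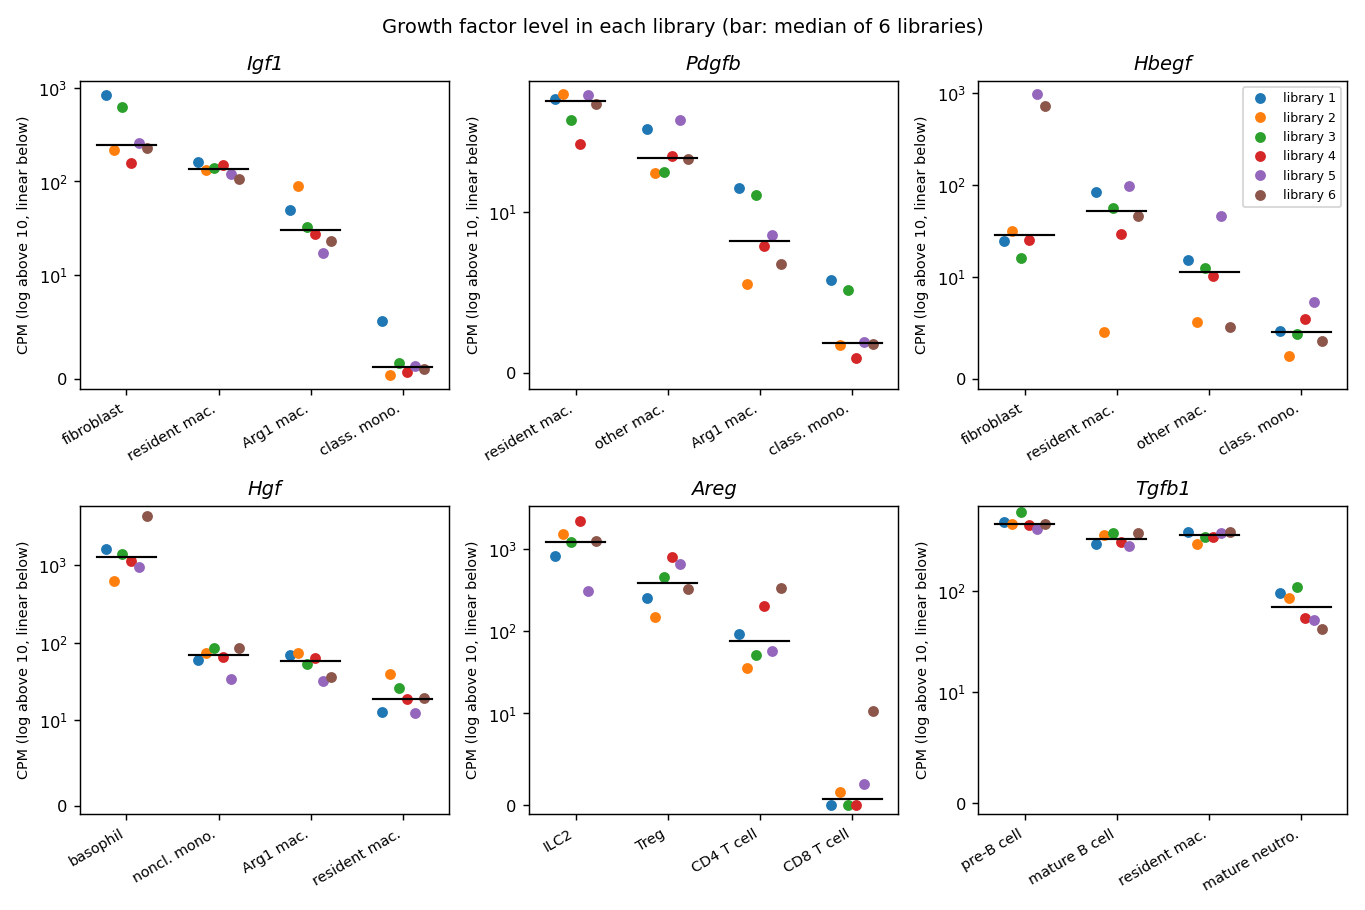
CPM of 6 growth factors in 4 classes each, with 1 point per library (colors, numbered 1 to 6) and a bar at the median of the libraries; the axis is logarithmic above 10 CPM and linear below. Hgf in basophil-like cells and Igf1 and Pdgfb in resident macrophage-like cells lay above the other leukocyte classes drawn within every library, and Hbegf in fibroblast-like cells was high in libraries 5 and 6.

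Neuregulin 1, the product of Nrg1 (ENSMUSG00000062991, chr8:31814551-32884029) and a ligand of ErbB3 and ErbB4, marked monocyte-like cells. The pooled level was 989 CPM (978 to 1001) in 1075 cycling monocyte-like cells and 737 CPM (731 to 744) in 3461 classical monocyte-like cells. It was 693 CPM (679 to 707) in 630 Cxcl9 monocyte and macrophage-like cells, which carry interferon-induced genes. Along the macrophage-like classes it was lower, with 297 CPM (288 to 305) in Arg1 macrophage-like, 218 CPM (213 to 224) in other macrophage-like and 52.3 CPM (49.5 to 55.2) in resident macrophage-like cells. The 3 monocyte-containing classes together held most Nrg1 UMIs, classical monocyte-like cells 39.6%, cycling monocyte-like cells 24.2% and Cxcl9 monocyte and macrophage-like cells 8.07%.

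By library, from 1 to 6, classical monocyte-like cells had 292, 459, 482, 953, 718 and 1263 CPM of Nrg1, and cycling monocyte-like cells had 540.4, 499.8, 1487, 1469.9, 768 and 1318 CPM. Libraries 1 and 2 were the lowest in both classes, as they were in Cxcl9 monocyte and macrophage-like cells (302 and 275 CPM) and Arg1 macrophage-like cells (138 and 126 CPM). The range of the libraries was thus wide within a class. Classical monocyte-like cells lay above Arg1 macrophage-like cells in 6 of 6 libraries, and the pooled levels differed 2.49-fold. Of 3713 genes of at least 50 CPM in either class, 3.56% were at least 2-fold and in every library higher in classical monocyte-like cells, and Nrg1 was the growth factor among them. Cycling monocyte-like cells lay above classical monocyte-like cells in 6 of 6 libraries, with overlapping ranges. Between classical monocyte-like and Cxcl9 monocyte and macrophage-like cells there was no such order, since the former were higher in 2 of 6 libraries.

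Nonclassical monocyte-like cells, the patrolling monocytes with Ace and Cd300e, had 80.9 CPM (69.0 to 94.2) of Nrg1 and lay below classical monocyte-like cells in 6 of 6 libraries without overlap. Migratory dendritic cell-like cells had 242 CPM (218 to 267). In the neutrophil lineage, promyelocyte-like cells had 158 CPM (154 to 163), and the level was 22.97 CPM in cycling neutrophil precursor-like, 29.6 CPM in granule-rich neutrophil-like and 24.1 CPM in mature neutrophil-like cells. Nrg1 was found in 66.0% of classical monocyte-like cells (64.4 to 67.5%) at a median of 16137 UMIs, with 20.1 UMIs per positive cell. In 3000 UMIs the share was 46.9% (45.2 to 48.6%) there, 61.2% (58.2 to 64.1%) in cycling monocyte-like and 0.419% (0.192 to 0.795%) in mature B cell-like cells. No Nrg1 UMI was counted in 290 NK cell-like cells or in 44 basophil-like cells, which by the limit of 3 counts allows up to 1.03% and 6.82% of cells with a UMI.

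Vegfa (ENSMUSG00000023951, chr17:46016993-46032369) encodes the main growth factor of blood vessels and is induced by low oxygen in many cell types. It was highest in Arg1 macrophage-like cells, at 246 CPM (239 to 253), and was shared by many other classes. Stem and progenitor-like cells had 161 CPM (151 to 172), Cxcl9 monocyte and macrophage-like cells 149.9 CPM (143 to 157) and NK cell-like cells 144 CPM (131 to 159), with intervals that overlapped from each to the next. Mast cell-like cells had 115 CPM (92.8 to 142), classical monocyte-like cells 114 CPM (111 to 117) and other macrophage-like cells 113 CPM (109 to 117). Resident macrophage-like cells had 28.2 CPM (26.1 to 30.4).

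The Arg1 macrophage-like class had 204, 199.96, 351, 149, 100.7 and 150.5 CPM of Vegfa in libraries 1 to 6. Library 3 was the highest, and without it the pooled value was 174 CPM. Among classes of at least 20 cells in a library, stem and progenitor-like cells led in library 2 (252 CPM) and mast cell-like cells in library 5 (154 CPM). All 6 Arg1 macrophage-like values lay above the highest resident macrophage-like library (70.5 CPM), and the pooled levels differed 8.72-fold. Against classical monocyte-like cells the class was higher in 6 of 6 libraries, 2.16-fold when pooled, with overlapping ranges. The share of genes that were at least 2-fold and in every library higher in Arg1 macrophage-like cells was 7.16% against classical monocyte-like cells, with Vegfa among them. Against resident macrophage-like cells it was 6.5% of 3907 genes, with Hgf, Vegfa and Nrg1 among them, and in the opposite direction 9.14%, with Igf1 and Hbegf among them. Pdgfb, at 49.7 CPM in resident macrophage-like cells, missed the floor of 50 CPM and was not counted. It was 4.52-fold higher there than in Arg1 macrophage-like cells, and higher in 6 of 6 libraries.

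Transcripts of neutrophil markers were present beside this result. The 12 markers of neutrophils, all with a UMI in the Arg1 macrophage-like class, summed to 33961 CPM, with 21531 to 55932 CPM by library. In mature neutrophil-like cells the sum was 201590 to 287102 CPM by library. Pooled, it was 18449 CPM in resident macrophage-like and 16431 CPM in classical monocyte-like cells. In libraries 1 to 6 the sum in the Arg1 macrophage-like class was 33931, 39583, 28879.9, 21531, 55932 and 39917 CPM. Within the class, the 159 cells with at least 10 Vegfa UMIs had 586 CPM of Ltf and 1135 CPM of Camp, both of neutrophil granules. In 213 cells without Vegfa these were at 167 and 322 CPM. The cells high in Vegfa also had 698 CPM of Arg1, a gating marker, against 227 CPM. Deep cells reach 10 UMIs more easily, and whether some of the barcodes high in Vegfa held more than a single cell was not tested. How far neutrophil RNA adds to the level of Vegfa was not tested.

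Mature neutrophil-like cells, the largest class with 7169 cells, held 13.5% of all Vegfa UMIs at a level of 94.6 CPM (91.9 to 97.3). Granule-rich neutrophil-like cells, the less mature cells with Ltf and Ngp, had 39.2 CPM. Libraries 1 to 6 had 159, 135, 179, 91.6, 73.5 and 57.7 CPM in the former and 63.2, 59.4, 94.9, 37.9, 30.1 and 26.7 CPM in the latter. The mature class was higher within every library, 2.41-fold when pooled, while the ranges overlapped. Of 2608 genes of at least 50 CPM in either class, 18.3% were at least 2-fold and in every library higher in the mature class. Vegfa was the growth factor among them.

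The 9 macrophage markers all had UMIs in mature neutrophil-like cells. Their sums were 1252, 1159, 993, 647, 415 and 329.6 CPM in libraries 1 to 6, and libraries 1, 2 and 3 were the highest for both. In the 4009 mature neutrophil-like cells without a UMI of these markers, Vegfa was at 77.1 CPM (73.7 to 80.6), and in 2516 such granule-rich cells at 29.1 CPM (27.4 to 30.9). The levels of these cells differed 2.65-fold and in the same direction in 6 of 6 libraries, at median depths of 5620 UMIs in the mature and 13098 UMIs in the granule-rich cells. In libraries 1 to 6 the mature cells without these markers had 141, 113, 107, 90.0, 70.5 and 50.2 CPM of Vegfa. Over all cells of the table Vegfa was also highest in libraries 1, 2 and 3, at 95.6, 83.5 and 172 CPM. The part of macrophage RNA in the level of Vegfa was not tested. In 3000 UMIs, Vegfa was found in 17.1% of mature neutrophil-like (16.2 to 18.1%) and 8.14% of granule-rich neutrophil-like cells (7.22 to 9.13%).

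NK cell-like cells differed from the T cell-like classes. Libraries 1 to 6 had 173, 161, 209, 61.9, 114 and 93.1 CPM of Vegfa in NK cell-like cells, all above the highest CD8 T cell-like library, where the pooled level was 4.96 CPM. Vegfa was found in 34.1% of NK cell-like cells in 3000 UMIs (28.5 to 39.9%) and in 1.08% of CD8 T cell-like cells (0.224 to 3.13%). No Vegfa UMI was counted in 130 regulatory T cell-like cells, at a median of 7351.5 UMIs, which by the limit of 3 counts allows up to 2.31% of cells with a UMI.

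**Figure D3:**
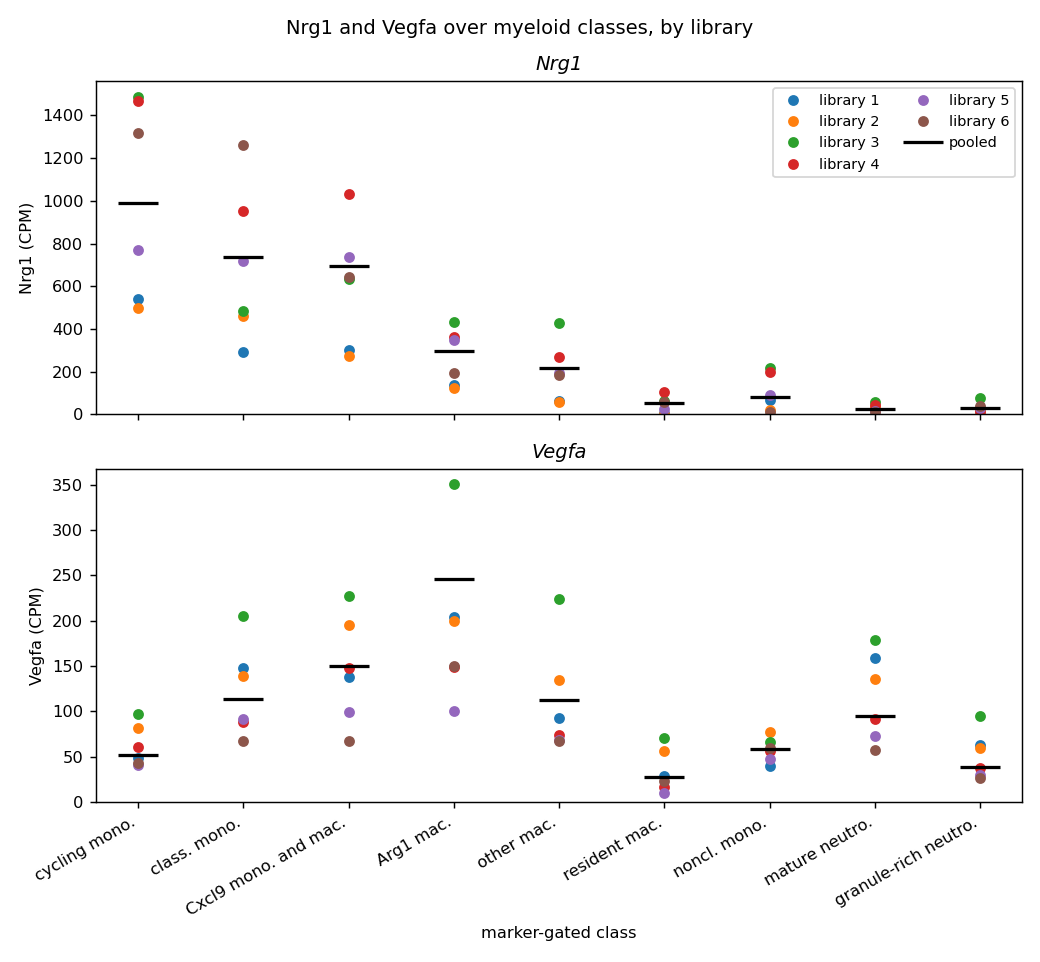
CPM of Nrg1 (upper panel) and Vegfa (lower panel) in 9 myeloid classes, with 1 point per library (colors) and a horizontal bar for the pooled level. Nrg1 is high in the monocyte-containing classes and low in resident macrophage-like and neutrophil-like cells, with libraries 1 and 2 low, and Vegfa is highest in Arg1 macrophage-like cells, with library 3 at 351 CPM.

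Hgf (ENSMUSG00000028864, chr5:16553495-16620152), the hepatocyte growth factor that acts on the receptor Met, had a level in basophil-like cells far above that of any other class, 1029.6 CPM (937 to 1129) from 44 cells. Libraries 1 to 6 had 1651, 622, 1394, 1157, 941 and 4356 CPM, from 7, 17, 10, 3, 4 and 3 cells. Although the cells were few, every library lay above all libraries of stem and progenitor-like cells, the next class with 71.9 CPM (65.2 to 79.1), and above all libraries of mast cell-like cells with 25.3 CPM (15.5 to 39.1). The pooled level was 14.3-fold above the next class.

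Library 2, which gave 17 of the basophil-like cells, had 23584.6 CPM of the 12 neutrophil markers in this class, against 869 to 2352 CPM in the other libraries. Without library 2 the level of Hgf was 1590.2 CPM. Hgf was found in 42 of 44 basophil-like cells (95.5%, 84.5 to 99.4%) at a median of 6497 UMIs, against 0.180% of mature B cell-like cells. In 3000 UMIs, 78.6% of 42 basophil-like cells (63.2 to 89.7%) had it. The class was gated on Mcpt8, Prss34, Ms4a2, Cd200r3, Fcer1a and Gata2, and Il6, Ccl3 and Il4 were among its 10 leading genes.

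The basophil-like class was small and held 3.95% of all Hgf UMIs, with 0.0912% of all UMIs. Most Hgf transcripts lay in abundant myeloid classes at lower levels, with 20.3% in classical monocyte-like cells at 37.7 CPM (36.2 to 39.3), 9.88% in promyelocyte-like cells at 39.6 CPM, 9.35% in other macrophage-like cells at 41.1 CPM and 8.56% in Arg1 macrophage-like cells at 57.2 CPM (53.7 to 60.9). Classical monocyte-like cells ranged from 32.5 to 45.9 CPM over the libraries and lay above mature neutrophil-like cells, at 11.3 CPM, in 6 of 6 libraries without overlap. Arg1 macrophage-like cells were 3.19-fold above resident macrophage-like cells (17.9 CPM) and higher in 6 of 6 libraries, with overlapping ranges. In 3000 UMIs, nonclassical monocyte-like cells had Hgf in 15.9% (10.9 to 22.1%) of cells.

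Areg (ENSMUSG00000029378, chr5:91139599-91148432) encodes amphiregulin, a ligand of the EGF receptor known from type 2 immunity and from tissue repair by regulatory T cells. It was highest in 112 ILC2-like cells, at 1238 CPM (1167 to 1312), and next in 130 regulatory T cell-like cells, at 439.5 CPM (403 to 479). Libraries 1 to 6 had 821, 1504, 1191, 2194, 309 and 1236 CPM in the former and 254, 149, 449, 801, 644 and 326 CPM in the latter. The ILC2-like class was higher in 5 of 6 libraries, with library 5 as the exception.

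T cell-like classes differed in Areg. Gamma-delta T cell-like cells had 184 CPM (158 to 212) and CD4 T cell-like cells outside the regulatory class had 117 CPM (103 to 133), while CD8 T cell-like cells had 2.48 CPM (1.07 to 4.89). Both of the former lay above CD8 T cell-like cells in 6 of 6 libraries without overlap. Regulatory T cell-like cells lay above CD4 T cell-like cells in 5 of 6 libraries. In 3000 UMIs, Areg was found in 64.6% of ILC2-like cells (54.4 to 73.99%), in 44.1% of regulatory T cell-like cells (35.3 to 53.2%), in 1.08% of CD8 T cell-like and in 0.0466% of mature B cell-like cells. Before thinning the shares were 67.9%, 62.3%, 1.42% and 0.361%, at median depths of 6898.5, 7351.5, 10490.0 and 5602.5 UMIs.

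ILC2-like and regulatory T cell-like cells held 10.1% and 4.65% of all Areg UMIs, with 0.190% and 0.246% of all UMIs. Another 19.7% lay in classical monocyte-like cells, where the pooled level was 35.9 CPM (34.4 to 37.4), and 20.6% in cells without a class. In the monocyte-like cells Areg was uneven. It was found in 8.78% of them (7.86 to 9.78%), and 65 cells with at least 10 Areg UMIs, from 3 to 16 a library, held 68.1% of the Areg UMIs of the class. These 65 cells, examined after their values were seen, had 2183 CPM of Spp1 and 409 CPM of Arg1, markers of the Arg1 macrophage gate, against 423 and 56.5 CPM in the 3157 cells without Areg. Il10, an anti-inflammatory cytokine, was at 59.7 CPM (48.0 to 73.3) and 5.63 CPM (5.02 to 6.29). Vegfa was at 238 CPM in the former and 111 CPM in the latter, and Nrg1 at 471 and 737 CPM. Deep cells reach 10 UMIs more easily, and whether some of these barcodes held more than a single cell was not tested.

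Tgfb1 (ENSMUSG00000002603, chr7:25687002-25705077), which encodes TGF-β1, was the growth factor with the broadest pattern, and 67.1% of all cells had a UMI of it. Pre-B cell-like cells had 467 CPM (454 to 479), stem and progenitor-like cells 431 CPM (415 to 448), NK cell-like cells 399 CPM (376 to 422) and pro-B cell-like cells 393 CPM (376 to 411). Resident macrophage-like cells had 367 CPM (359 to 374) and mature B cell-like cells 344 CPM (335 to 354). From stem and progenitor-like to nonclassical monocyte-like cells, which had 363 CPM (338 to 390), the interval of each class overlapped with that of the next. The 26 megakaryocyte-like cells, too few to be ranked, had 604 CPM (543 to 670) from 4 libraries.

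Mature neutrophil-like cells were at the low end with 62.1 CPM of Tgfb1, next to granule-rich neutrophil-like cells with 68.1 CPM. Libraries 1 to 6 had 97.2, 86.1, 111, 53.8, 51.9 and 42.2 CPM in mature neutrophil-like cells, and 298, 362, 385, 310.1, 284 and 386 CPM in mature B cell-like cells. The difference was 5.54-fold, with no overlap between libraries. Pre-B cell-like cells, with 493, 466, 617, 461, 415 and 466 CPM, lay above mature B cell-like cells without overlap, 1.36-fold when pooled. In 3000 UMIs, Tgfb1 was found in 63.3% of pre-B cell-like cells (61.2 to 65.5%), 60.3% of resident macrophage-like cells (57.9 to 62.6%) and 11.9% of mature neutrophil-like cells (11.1 to 12.7%). No class could serve as one that lacks this transcript.

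**Figure D4:**
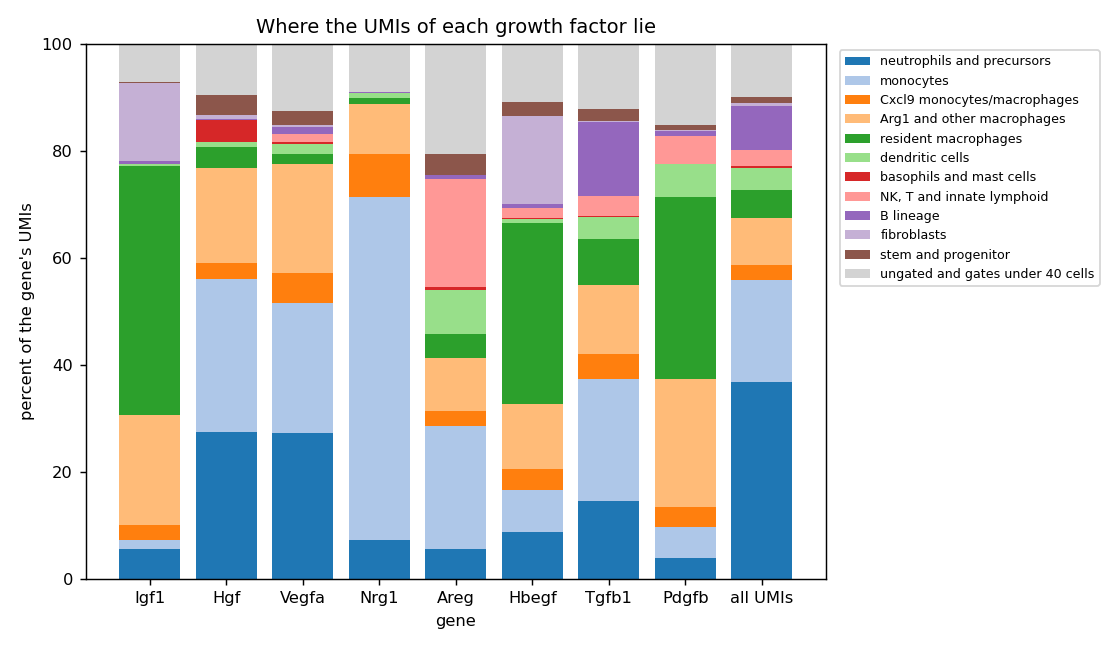
Stacked bars of the share of the UMIs of each growth factor, in percent, that lay in groups of the marker-gated classes, with the share of all UMIs as the last bar. Resident macrophage-like cells hold 46.5% of Igf1, 33.8% of Hbegf and 34.1% of Pdgfb UMIs but 5.20% of all UMIs, and monocyte-like cells hold most of Nrg1.

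After thinning to 3000 UMIs, most cells had a UMI of few of these factors, which sets no limit on those they express. Unthinned, Tgfb1 was found in 92.7% and Nrg1 in 66.0% of classical monocyte-like cells. In 3000 UMIs, at least 2 of the 8 were found in 50.9% of Cxcl9 monocyte and macrophage-like, 45.7% of Arg1 macrophage-like, 41.9% of classical monocyte-like and 36.7% of resident macrophage-like cells. In the same number of UMIs this was so in 4.16% of mature neutrophil-like and 1.49% of mature B cell-like cells. In Arg1 macrophage-like cells, Nrg1 was found in 36.7% of 251 cells with Vegfa (30.7 to 42.9%) and in 24.1% of 431 cells without (20.2 to 28.5%). In classical monocyte-like cells the shares were 47.4% (43.8 to 51.1%) and 46.7% (44.8 to 48.6%). Cells of all libraries were pooled for these shares, and the intervals cover the counting of cells only. Library 3, the highest for Vegfa, gave 259 of the 704 Arg1 macrophage-like cells. How far differences between libraries add to these shares was not tested.

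Across the 30 classes of at least 50 cells, the genes with the pattern most like each growth factor were named by the Pearson correlation of log2(CPM + 1). The points are sums over the same 6 libraries and are not independent, and no p-value is attached. For Igf1 these were Gas6 (r = 0.956), C4b (0.926) and Fermt2 (0.907). For Nrg1 they were Adora2b (0.922), Mefv (0.918) and Met (0.909), the receptor gene of HGF. For Hgf they were Scamp1 (0.932), Pla2g4a (0.895) and Ier3 (0.878), in an order that leaves out the 44 basophil-like cells; with these added, Ier3 (0.893), Gm16194 (0.866) and Nlrp3 (0.860) came closest.

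The remaining factors had looser matches. They were 1700112E06Rik (0.864), Hgf (0.767) and Gab2 (0.760) for Vegfa, Tnip1 (0.812), Pim1 (0.792) and Atp2b4 (0.786) for Areg, and Olfml3 (0.813), Npdc1 (0.800) and Gstm5 (0.789) for Hbegf. For Tgfb1, Cpt1a (0.839) and Rhot1 (0.830) were closest, and for Pdgfb, Bcl2a1b (0.807), 3110043O21Rik (0.803) and Bcl2a1d (0.802). Bcl2a1b and Bcl2a1d are close paralogs whose reads cannot be split with certainty.

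The pathways of the 8 factors were described by a list of 67 further gene symbols, of which 65 were in the table. Figf and Vegfd, the old and new symbols of 1 gene, were both listed, and only Figf was in the table. Of the 65, 38 reached 50 CPM in at least 1 class, as did 7834 of the 20394 genes in the table. By family, 7 of 9 genes of the IGF pathway, 3 of 9 of the HGF pathway, 4 of 9 of the VEGF family, 5 of 16 of the EGF family, 15 of 16 of the TGF-β family and 4 of 6 of the PDGF family did so. No result about a family was read from these counts. Over all cells, 19 of the 65 were below 1 CPM, and the share of all genes below that level was not counted. Named here are the genes that reached the highest CPM of their role (ligand, receptor, carrier or releasing enzyme) in their family. Erbb3, Erbb4, Tgfbr2, Adam17 and Thbs1 were added after their values were seen.

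Other ligands were led by few genes. Pdgfc, a further PDGF chain, had 111 CPM (107 to 115) in resident macrophage-like cells, 78.4 to 127 CPM by library, and 33.1 CPM in other macrophage-like cells. Nrg2 had 105 CPM (102 to 109) in promyelocyte-like cells. Vegfc, which acts on lymphatic vessels, had 133 CPM (109 to 161) in mast cell-like cells and 95.4 CPM (76.5 to 118) in ILC2-like cells, and their intervals overlapped. Tgfb2 had 239.7 CPM (219 to 261) and Igf2 42.9 CPM (34.5 to 52.6) in fibroblast-like cells, and Mst1, the ligand related to HGF, stayed at or below 1.08 CPM in every ranked class.

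Several receptor genes were highest outside the classes that led for their ligands, and others, given below, within them. How often other pairs of genes share a highest class was not counted. Igf1r, the IGF-1 receptor, was highest in granule-rich neutrophil-like cells, at 876 CPM (868 to 883), and was at 813 CPM (806 to 821) in mature neutrophil-like and 873 CPM (816 to 933) in gamma-delta T cell-like cells. In resident macrophage-like cells, the main leukocyte class for Igf1, it was at 269 CPM. Met was at 68.6 CPM (65.6 to 71.8) in cycling monocyte-like and 67.5 CPM (65.5 to 69.6) in classical monocyte-like cells, and at 18.02 CPM (7.78 to 35.5) in the basophil-like cells that led for Hgf. Nrp1, a co-receptor of VEGF, was at 416 CPM (408 to 424) in resident macrophage-like cells and 282 CPM in Arg1 macrophage-like cells.

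Among EGF family receptors, Egfr was at 521 CPM (491 to 553) in fibroblast-like cells, the class that led for its ligand gene Hbegf in pooled levels. In resident macrophage-like cells Egfr was at 82.3 CPM (78.8 to 86.0), 15.7 to 124 CPM by library. It was at 1.21 CPM in classical monocyte-like cells and had no UMI in ILC2-like or regulatory T cell-like cells, the classes that led for its ligand gene Areg (intervals up to 4.00 and 3.08 CPM). For neuregulin 1, Erbb3 reached 18.4 CPM (12.96 to 25.4) in CD4 T cell-like cells, 0 to 64.0 CPM by library. Plasmacytoid dendritic cell-like cells were next with 14.8 CPM (11.7 to 18.5), and the intervals overlapped. Erbb4 did not exceed 0.620 CPM in any ranked class. The receptors of TGF-β1 were wider, with Tgfbr1 at 583 CPM (531 to 639) in mast cell-like cells. Tgfbr2 was highest in pre-B cell-like cells, at 522 CPM (509 to 535), the class that also led for Tgfb1. The PDGF receptor Pdgfra was at 319 CPM (296 to 344) in fibroblast-like cells, and no other ranked class exceeded 0.485 CPM.

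**Figure D5:**
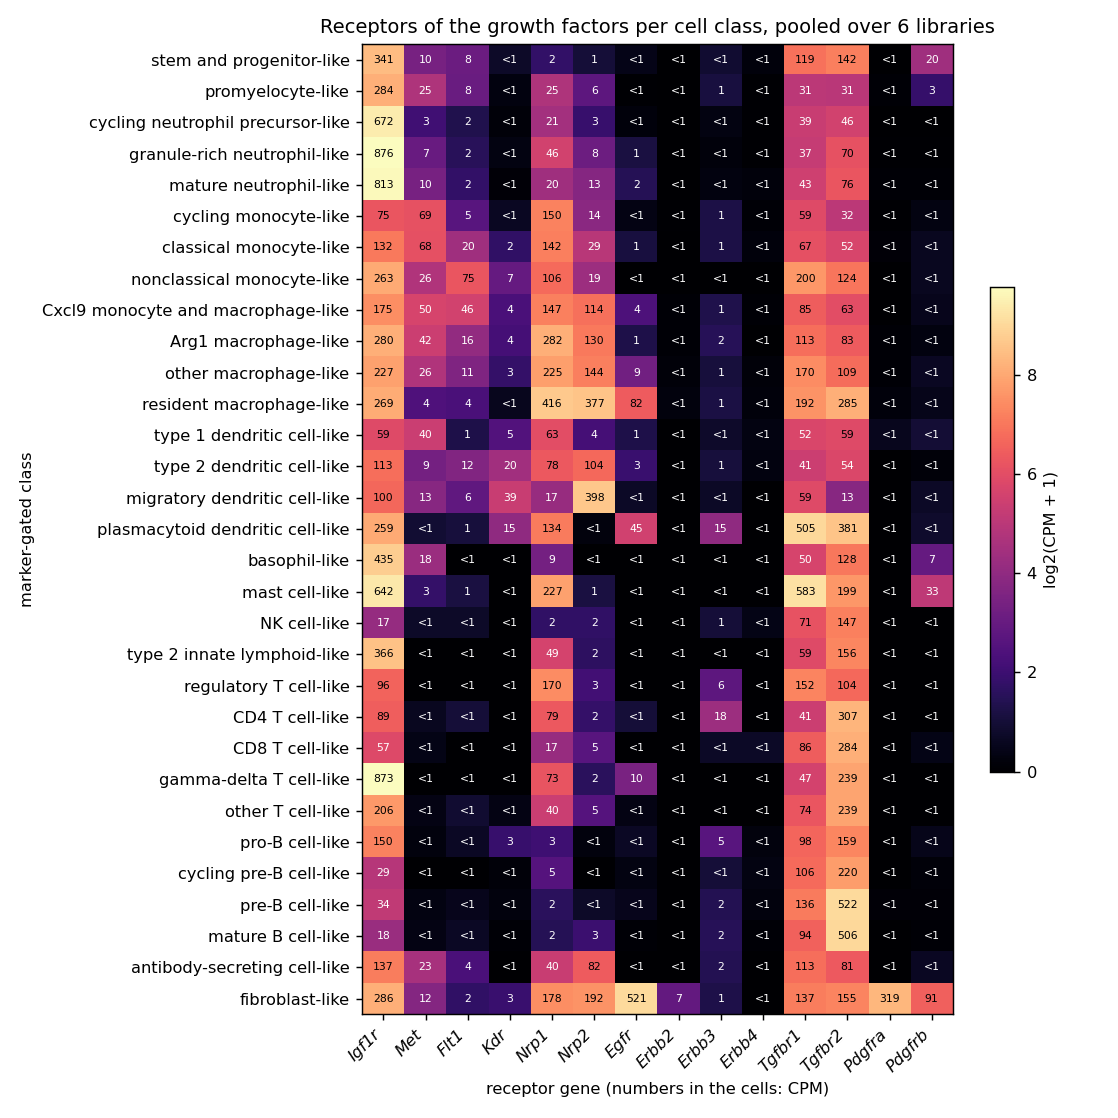
Level of 14 receptor genes (columns) of the growth factors in the 31 marker-gated classes of at least 40 cells (rows), pooled over 6 libraries. The color gives log2(CPM + 1) and the printed numbers CPM. Igf1r is high in neutrophil-like classes, Tgfbr2 in B lineage classes, Nrp1 and Nrp2 in resident macrophage-like cells, and Egfr, Pdgfra and Pdgfrb in fibroblast-like cells, while Erbb2 and Erbb4 are below 1 CPM in every leukocyte class.

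Carriers and releasing enzymes completed the pathways. Nrros, a carrier of latent TGF-β1, had 402 CPM (375 to 431) in nonclassical monocyte-like cells, 322 to 488 CPM by library. Igfbp6, a binding protein of IGFs, had 1553 CPM (1500.2 to 1607) in fibroblast-like cells, and Plau, a protease that can activate HGF, had 736 CPM (699.6 to 773) there and 93.5 CPM (89.8 to 97.3) in resident macrophage-like cells. Adam10, a sheddase of EGF family ligands, was at 861 CPM (845 to 879) in pre-B cell-like cells and 146 CPM in classical monocyte-like cells. Adam17, the other main sheddase, ranged from 31.2 CPM in cycling neutrophil precursor-like cells to 160.4 CPM in other macrophage-like cells over the ranked classes. Furin, which cuts the TGF-β1 precursor among other proteins, had 2235 CPM (2098 to 2379) in basophil-like cells and 1374 CPM (1300 to 1452) in ILC2-like cells, the classes that led for Hgf and Areg. Thbs1, thrombospondin 1, which can activate latent TGF-β1, was at 2133 CPM (2120.4 to 2146) in mature neutrophil-like cells, the class lowest for Tgfb1 itself.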

How the data were processed

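Synovial cells of 6 mouse samples were sorted for CD45 and sequenced with a droplet 3′ kit. The authors deposited 1 matrix of UMI counts per gene and cell, pooled over the samples. It followed alignment to mm10 with Cell Ranger 7, removal of ambient RNA and doublets, and filters on mitochondrial reads and genes per cell. The deposited values were whole-number counts, and 1724738 stored values were 0. How far the removal of ambient RNA changed these counts was not tested, and the intervals treat them as direct counts. No doublet caller was run again. Classes were gated here on marker scores (each marker scaled by its 75th percentile among positive cells and capped at 1, a score of at least 0.25 and a lead of 0.1). CPM are UMIs of a gene over all UMIs of a class, with exact Poisson intervals, and shares of cells have Clopper-Pearson intervals, both at the 0.95 level. Shares were also taken after thinning to 3000 UMIs per cell. No test was run, since no source used here assigns barcode library numbers to treatments. Likeness used 7619 genes of at least 50 CPM in a class, without gating markers, and named the 3 highest correlations for each growth factor, of which 1 is not reported here; all 8 growth factors were named whatever their values. The growth factors and gene lists were chosen with earlier results of these data known. Alternatives were a stricter lead of 0.2, 51 Leiden clusters (resolution 2) named by the same markers, medians over libraries, means of single-cell CPM, and leaving out libraries or the 5% of cells with most UMIs. The counting was tested on simulated data. Python 3.11.15, numpy 2.4.6, scipy 1.17.1, pandas 2.3.3 and scanpy 1.11.5 were used.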

Additional observations from a re-analysis of the deposited data

How the results depend on the processing

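No paired analysis was possible because the matrix carries no treatment for the 6 library numbers and no test was run. The highest class of all 8 growth factors stayed the highest under the stricter gate and with any 1 library left out. Within single libraries, over classes of at least 20 cells, 2 to 5 of 8 kept it. Classes with fewer cells in a library, such as basophil-like cells in each of them, could not be kept. By the median over libraries Hbegf was higher in resident macrophage-like cells, at 51.3 CPM, than in fibroblast-like cells. The levels moved more. For Igf1, Leiden clusters gave 451 CPM, the median over libraries 245 CPM and leaving out the cells of most UMIs 573 CPM, and leaving out 1 library gave 298 to 629 CPM. For Hgf the median was 1275 CPM and the mean of single-cell CPM 1646 CPM, with 910.2 to 1590.2 CPM without 1 library. Vegfa had a median of 175 CPM and 174 to 259.9 CPM without 1 library, and no Leiden cluster took the name of its highest class. For Nrg1 the stricter gate gave 1073, Leiden clusters 1112, the median 1043 and the single-cell mean 1004 CPM, with 839.6 to 1114 CPM without 1 library. Areg had 1074 CPM by Leiden clusters and 883 CPM as a single-cell mean, with 1056 to 1412 CPM. Hbegf had 296 CPM by Leiden clusters, 28.4 CPM as a median and 302 CPM as a single-cell mean, with 103 to 574 CPM. Tgfb1 had 489 CPM by Leiden clusters and 481 CPM as a single-cell mean, with 458 to 479.7 CPM, and Pdgfb 58.4 CPM as a median and 52.7 CPM as a single-cell mean, with 46.2 to 58.2 CPM. The cause of these shifts was not tested. Chosen after seeing the data were the same settings for 4 further levels, which without 1 library ranged from 135 to 145 CPM for Igf1 and from 50.5 to 72.1 CPM for Hbegf in resident macrophage-like cells, from 583 to 823 CPM for Nrg1 in classical monocyte-like cells and from 84.4 to 107 CPM for Vegfa in mature neutrophil-like cells. Cell number limits the level in basophil-like cells, of which there were 44, with as few as 3 in a library, and mast cell-like cells had the lowest median depth, 3977 UMIs.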
